A study of Mus musculus with 13 samples.

Results

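The retinoic acid receptor genes Rarb, Rara and Rarg, their dimer partner Rxra and the topoisomerase gene Top2b, which lies beside Rarb, were followed through the level of 5-hydroxymethylcytosine (5hmC) in their surroundings. The members were the 300 kb bins that overlap the bodies of these 5 genes: 5 bins named by the rule of choice, out of 9097 bins in all. The RefSeq body of Rarb runs on into 1 further bin, which was added, so 6 bins are described. The genes were chosen by measured values: the bin of Top2b and Rarb had one of the smallest p values for the difference between Phd2 genotypes, so for that difference all values of the 6 bins are a description without a test. The rule did not use the difference between sFlk1 and empty vector tumours, though results of those tumours were known too.

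5hmC was measured by shallow tet-assisted bisulfite sequencing (TAB-seq), in which 5hmC is protected and other cytosines are converted, so that a cytosine read as cytosine stands for 5hmC. The samples were 13 whole breast tumours of FVB mice carrying tumours induced by PyMT, the polyoma middle T oncogene, 1 tumour per mouse as titled. In the Phd2 model the mice were 16 weeks old and carried either both Phd2 alleles, PHD2+/+ (n = 3, called wild type), or 1 of them, PHD2+/- (n = 4, called heterozygous). No plasmid is named for them. In the injected model the mice were 12 weeks old and had received, by hydrodynamic injection, the plasmid PRRL2-sFlk1 (n = 3), for a soluble form of the VEGF receptor Flk1, or the empty PRRL2 plasmid (n = 3). The labels describe the PHD2+/- tumours as better vascularised and oxygenated and the sFlk1 tumours as more hypoxic. Age and injection differ together between the models, so a difference between models cannot be assigned to either. The Phd2 genotype is that of the mouse, and what drives sFlk1 from the plasmid is not given in the sources used here. Each value is an average over all cells of a tumour, so a change of cell types and a change of 5hmC within a cell type cannot be told apart, and no value here shows which cells express a gene.

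Retinoic acid receptors are nuclear receptors that bind DNA as heterodimers with an RXR. Without ligand they hold corepressors at target genes, and with retinoic acid, which aldehyde dehydrogenases make from retinaldehyde, they recruit coactivators. Rarb is itself a target gene of the receptors, through a response element in its promoter, and it is a well-known gene silenced by promoter methylation in breast cancer. Rara and Rarg encode the other receptors of the family, and Rxra encodes the partner shared with thyroid hormone, vitamin D and PPAR receptors. Top2b encodes topoisomerase II beta, which relieves DNA torsion by passing one duplex through another and is present in non-dividing cells too. 5hmC is made from 5-methylcytosine by the TET dioxygenases, which use oxygen, and in many tissues it is found in gene bodies and enhancers.

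Coordinates are GRCm38. Top2b (gene ID 21974, chr14:16365206-16430787) lies whole in the bin chr14:16200001-16500000 and covers 21.9% of it. Rarb (gene ID 218772, chr14:16430839-17082331) is on the minus strand and ends next to the end of Top2b. Its last 10.6% lie in the same bin and cover 23.1% of it, and Oxsm and Ngly1 lie there too. The next bin, chr14:16500001-16800000, lies wholly within Rarb (46.0% of the gene), and chr14:16800001-17100000 holds the other 43.3%. They are called the Top2b and Rarb bin, the Rarb middle bin and the Rarb far bin. Rara (gene ID 19401, chr11:98927800-98974942) covers 15.7% of the bin chr11:98700001-99000000, which holds 13 protein-coding genes, among them the thyroid hormone receptor gene Thra. Rarg (gene ID 19411, chr15:102234938-102257522) covers 7.53% of the bin chr15:102000001-102300000, with 13 protein-coding genes including the luminal keratin genes Krt8 and Krt18. Rxra (gene ID 20181, chr2:27676445-27763319) covers 29.0% of the bin chr2:27600001-27900000, which it shares with Col5a1. A value therefore belongs to the bin, exons, introns and intergenic sequence together, and in the Rara and Rarg bins mostly to other genes.

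The starts of Top2b and Rarb lie in different bins, which matters for reading the values. RefSeq promoters (GRCm38.p6) were found for all 5 genes. The 250 bases before the start of Top2b, chr14:16364956-16365205 on the plus strand, lie in the Top2b and Rarb bin, with the CpG dinucleotides, the main substrate of DNA methylation, in capitals. The 250 bases before the listed start of Rarb, chr14:16575477-16575726 on the minus strand, lie in the Rarb middle bin, with the retinoic acid response element in capitals. Both read 5′ to 3′ on the strand of the gene.
Top2b: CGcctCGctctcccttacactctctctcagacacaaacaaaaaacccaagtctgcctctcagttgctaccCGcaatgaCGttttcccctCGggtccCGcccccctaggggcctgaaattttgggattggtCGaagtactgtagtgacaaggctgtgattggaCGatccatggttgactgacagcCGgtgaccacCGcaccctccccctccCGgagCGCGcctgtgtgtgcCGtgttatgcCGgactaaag
Rarb: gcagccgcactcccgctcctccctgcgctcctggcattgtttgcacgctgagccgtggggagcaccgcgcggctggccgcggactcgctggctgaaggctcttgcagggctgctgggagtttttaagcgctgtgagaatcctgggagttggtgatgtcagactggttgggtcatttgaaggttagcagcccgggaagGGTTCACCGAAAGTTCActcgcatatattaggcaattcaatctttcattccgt
The element in capitals in Rarb is a DR5, 2 direct repeats of the receptor half-site with 5 bases between them, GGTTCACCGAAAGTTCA, and it begins 53 bases before the start. On either strand, a DR5 was found in 29 of 32851 listed promoters (0.0883%), and in 1 of the 10 promoters listed for these 5 genes. CpG dinucleotides numbered 15 in the Top2b and 16 in the Rarb sequence, against a median of 6 over all promoters, and 40 in the promoter with the most, the upstream one of Rxra. The 5hmC values are averages over 300 kb and do not resolve these promoters.

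The mean over the 8576 bins kept lay between 2.18% and 2.42% in wild-type, 2.54% and 3.17% in heterozygous, 2.57% and 2.86% in empty vector and 2.39% and 2.52% in sFlk1 tumours. It was thus 22.5% higher in heterozygous than in wild-type tumours and differed by -8.17% between sFlk1 and empty vector tumours, and each of the 6 bins is set against that shift below. The table holds no read counts, so the depth behind a value is unknown. The labels do not state whether tumours were processed in batches.

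All member bins but the Rarb far bin lay above the genome-wide mean. Over the 13 tumours the Rarg bin had 5.52% ± 1.12 (SD, n = 13) and the Rara bin 5.34% ± 1.18, the Top2b and Rarb bin 4.31% ± 1.26, the Rxra bin 3.85% ± 1.10, the Rarb middle bin 3.67% ± 1.19 and the Rarb far bin 1.95% ± 0.728. The Rarg and Rara bins stood at the 94.1 and 93.0 percentiles of all bins and the Rarb far bin at the 42.8 percentile. Neighbours in this order differed by less than their spread over tumours in 4 of 5 steps. Rarg exceeded Rara by 0.178 ± 1.54 points and in 8 of 13 tumours, and Rxra exceeded the Rarb middle bin by 0.182 ± 1.33 points and in 7 of 13. The exception was the step inside Rarb, where the middle bin exceeded the far bin by 1.72 ± 1.10 points and in 11 of 13 tumours. Along Rarb, the gene here that spans several bins, 5hmC was thus lowest toward its far upstream end.

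In the 6 tumours of the injected model, the level was tested against the mean of the same tumour. The Rarg bin lay 3.04 ± 0.902 points (SD, n = 6), the Rara bin 2.27 ± 1.38 and the Top2b and Rarb bin 1.46 ± 0.749 above that mean, each in 6 of 6 tumours. By the exact two-sided sign-flip permutation test each had p = 0.0312, the smallest that 6 tumours allow, and an adjusted p of 0.0625 over the 6 bins, which does not pass 0.05. Of all bins, 24.9% lay above the mean in all 6 tumours. In all 13 tumours the Rara and Rarg bins did, 2 of the 6, against 21.3% of all bins. The Rxra bin was 0.555 ± 0.572 above in 5 of 6 (adjusted exact permutation p = 0.141), the Rarb middle bin 0.860 ± 1.55 above in 4 of 6 (0.338) and the Rarb far bin 0.267 ± 0.757 below the mean, being above it in 2 of 6 (0.469). Set against the median bin in place of the mean, the Rarg, Rara, Top2b and Rarb, and Rxra bins passed. Each was above it in 6 of 6 tumours, with an adjusted exact permutation p of 0.0469. Of all bins, 30.2% lay above the median bin in all 6 tumours. The Rarg, Rara and Top2b and Rarb bins had the smallest p that 6 tumours allow in both settings. They passed here only because the Rxra bin reached it too, which lowers the adjusted p.

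**Figure D1:**
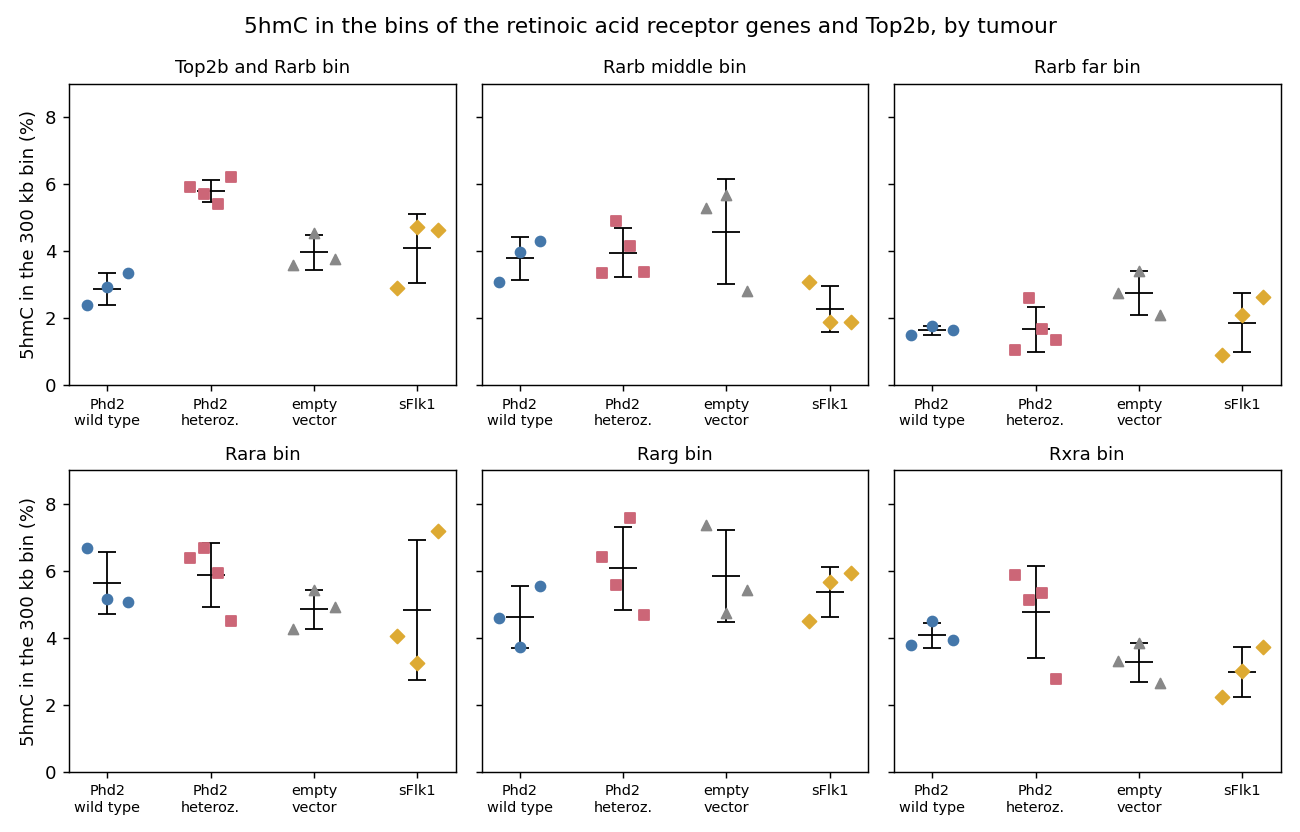
5hmC percentage (y axis) in each of the 6 bins, 1 point per tumour, by group (x axis: n = 3, 4, 3 and 3); bars are the group mean and SD. The 4 heterozygous tumours stand between 5.41% and 6.20% in the Top2b and Rarb bin, above the other 9 tumours, while the groups of the Phd2 model overlap in the other 5 bins.

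The Top2b and Rarb bin held a similar, high level of 5hmC in the 4 heterozygous tumours. Phd2 wild-type tumours 1 to 3 held 2.38%, 2.92% and 3.33%, and heterozygous tumours 1 to 4 held 5.90%, 5.69%, 5.41% and 6.20%. The groups did not overlap, and the heterozygous values were the 4 highest of the 13. Wild-type tumours averaged 2.88% ± 0.476 (SD, n = 3), against 5.80% ± 0.333 (SD, n = 4) in heterozygous ones, a difference of 2.92 points (SE 0.321), or 102%. In multiples of the mean of the same tumour, the bin held 1.23 ± 0.219 in wild-type and 2.04 ± 0.281 in heterozygous tumours. These values chose the bin. Of all bins, 11.0% had every heterozygous above every wild-type tumour and 75.1% a higher heterozygous mean, and the difference ranked 54 from the top. The means of the injected model lay between those of the Phd2 model, with 3.96% ± 0.518 in empty vector and 4.09% ± 1.03 in sFlk1 tumours.

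The rest of Rarb did not share that difference. In the Rarb middle bin, with the listed promoter, wild-type tumours 1 to 3 held 3.06%, 3.99% and 4.31% and heterozygous tumours 1 to 4 held 3.35%, 4.89%, 4.16% and 3.38%. The groups overlapped, with means of 3.79% ± 0.645 (SD, n = 3) and 3.95% ± 0.734 (SD, n = 4), 0.162 points apart (SE 0.523). In the Rarb far bin the means were 1.64% ± 0.131 and 1.66% ± 0.673, 0.0296 points apart (SE 0.345), and heterozygous tumours spread from 1.05% to 2.60%. Against the tumour mean, both bins were lower in heterozygous tumours: 1.37 ± 0.181 against 1.63 ± 0.314 multiples in the middle bin and 0.575 ± 0.192 against 0.703 ± 0.0974 in the far bin. Weighted by the length of Rarb in its 3 bins, the gene body held 2.76% ± 0.387 in wild-type and 3.15% ± 0.606 in heterozygous tumours.

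Within a tumour, the order of the 2 neighbouring bins turned. The Top2b and Rarb bin minus the Rarb middle bin was -0.680, -1.07 and -0.972 points in wild-type tumours 1 to 3 and 2.55, 0.798, 1.25 and 2.81 points in heterozygous tumours 1 to 4. All wild-type tumours thus had more 5hmC in the middle of Rarb, and all heterozygous tumours more at its end with Top2b. This gap contains the values that chose the Top2b and Rarb bin, so its split by genotype is a description without a test. How many other pairs of neighbouring bins split in this way was not counted. In the injected model it was -1.70, -1.11 and 0.952 points in empty vector and -0.168, 2.85 and 2.76 points in sFlk1 tumours 1 to 3. These overlapped, and the means differed by 2.43 points (exact two-sided permutation p = 0.20, where 3 against 3 tumours cannot go below 0.10); this difference was chosen after its values were seen.

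**Figure D2:**
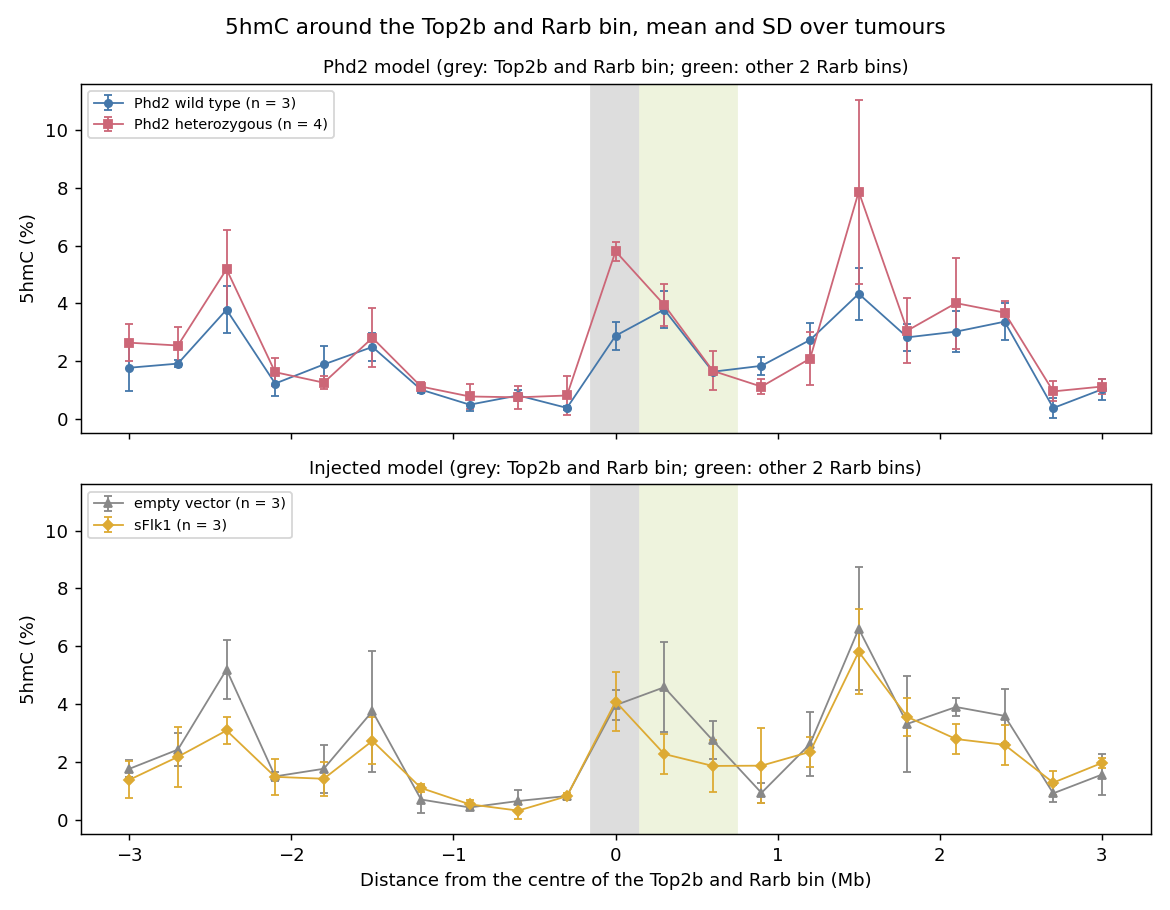
5hmC (y axis, %, group mean with SD over tumours) in the bins up to 3 Mb around the Top2b and Rarb bin, by distance from its centre (x axis, Mb), for the Phd2 model (above) and the injected model (below). The heterozygous mean of 5.80% at the centre stands above the wild-type mean of 2.88%, and the empty vector mean exceeds the sFlk1 mean in the bin to its right, 4.58% against 2.27%.

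The Top2b and Rarb bin stood at the edge of a gene-poor stretch. The 2 bins before it hold no protein-coding gene and had means over the 13 tumours of 0.642% and 0.716%, against 4.31% in it. Beyond Rarb, the bin chr14:17100001-17400000, without a protein-coding gene, held 1.84% ± 0.309 in wild-type and 1.12% ± 0.248 in heterozygous tumours, and the bin with the near end of Thrb, chr14:17400001-17700000, held 2.73% ± 0.601 and 2.09% ± 0.904. Of the Top2b and Rarb bin and the 2 bins to each side of it, only that bin had a heterozygous mean more than 1 point above the wild-type mean, a description without a test. For the bins before it, with means under 1%, 1 point is a large step. The nearer of them held 0.384% ± 0.0618 in wild-type and 0.813% ± 0.668 in heterozygous tumours, in proportion no smaller a difference of means. The other held 0.816% ± 0.202 and 0.750% ± 0.404.

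For the other receptors, the groups of the Phd2 model overlapped. In the Rara bin, wild-type tumours 1 to 3 held 6.69%, 5.15% and 5.07% and heterozygous tumours 1 to 4 held 6.38%, 6.68%, 5.93% and 4.50%. The highest of the 7 values was that of a wild-type tumour, and the means of 5.64% ± 0.914 and 5.88% ± 0.965 were 0.236 points apart (SE 0.715). In the Rarg bin, wild-type tumours held 4.60%, 3.72% and 5.54% and heterozygous tumours 6.42%, 5.59%, 7.59% and 4.69%. Here 3 of 4 heterozygous tumours exceeded the highest wild-type tumour, and the means of 4.62% ± 0.914 and 6.07% ± 1.23 were 1.45 points apart (SE 0.811). In the Rxra bin, wild-type tumours held 3.80%, 4.50% and 3.94% and heterozygous tumours 5.87%, 5.14%, 5.32% and 2.76%. Again 3 of 4 exceeded it, while heterozygous tumour 4 was the lowest of the 7, and the means of 4.08% ± 0.370 and 4.77% ± 1.38 were 0.696 points apart (SE 0.721). Heterozygous tumour 4 was thus the lowest of its group in the Rara, Rarg and Rxra bins and the highest in the Top2b and Rarb bin, and its genome-wide mean was the lowest of the 4 too. In multiples of the tumour mean, the Rara bin (2.41 ± 0.332 in wild-type, 2.04 ± 0.179 in heterozygous) and the Rxra bin (1.75 ± 0.269 and 1.65 ± 0.406) were lower in heterozygous tumours, and the Rarg bin higher (1.97 ± 0.303 and 2.12 ± 0.425). All 6 bins thus had a higher heterozygous mean in percent, 75.1% of all bins doing so, but 4 of 6 a lower one relative to the tumour.

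**Figure D3:**
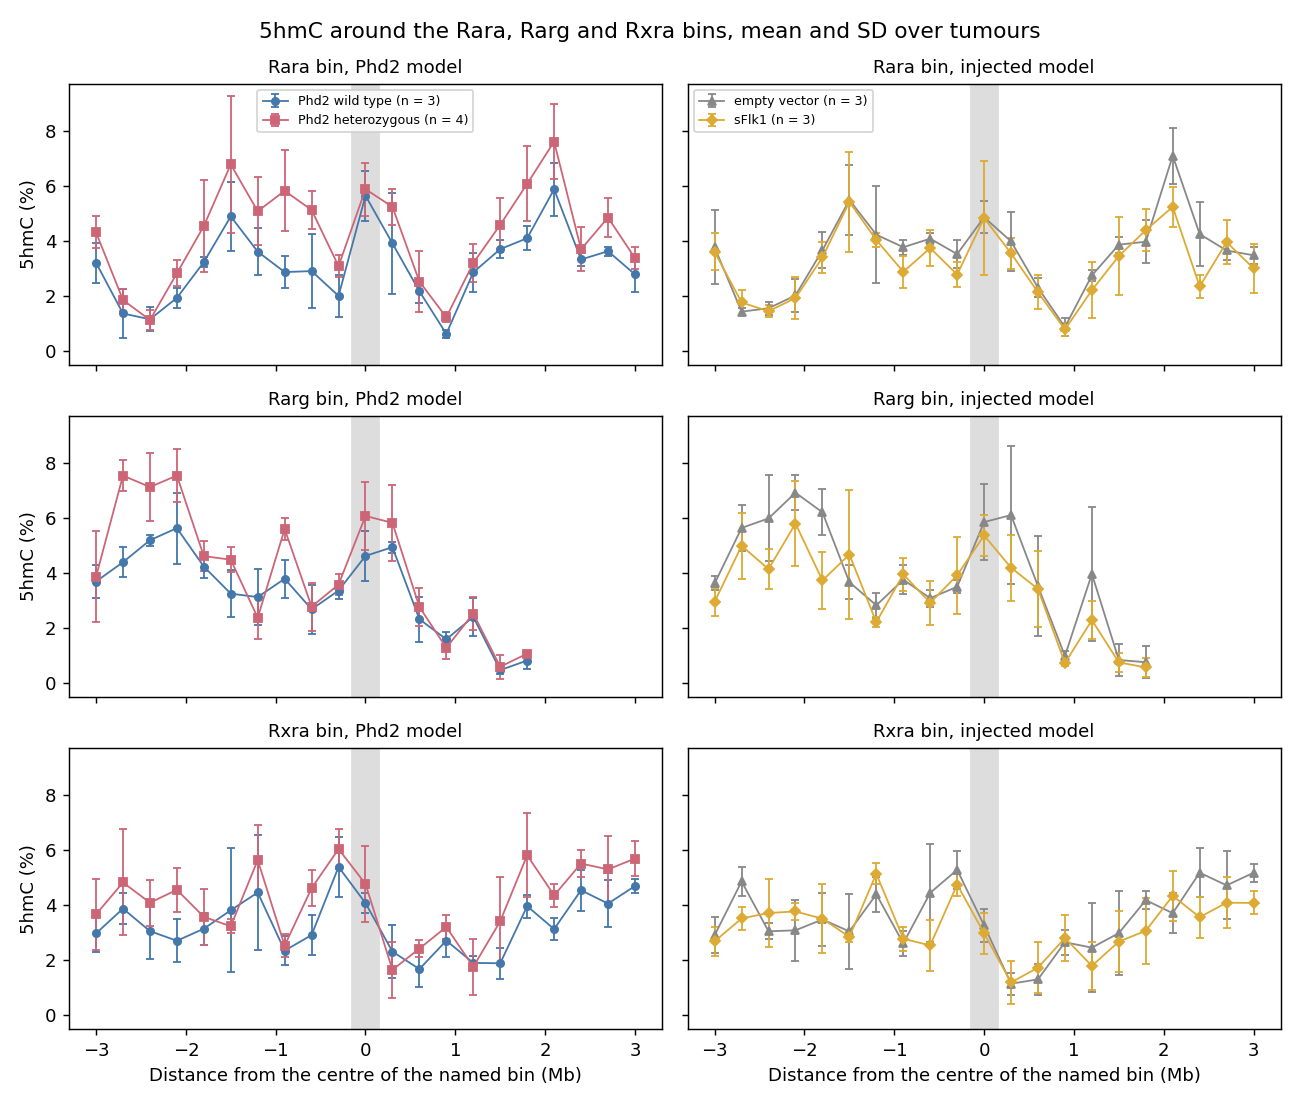
5hmC (y axis, %, group mean with SD over tumours) around the Rara, Rarg and Rxra bins (rows) by distance from the centre of the named bin (x axis, Mb), for the Phd2 model (left) and the injected model (right). At the Rara bin the heterozygous and wild-type means of 5.88% and 5.64% nearly meet, with wider gaps in the bins to its left.

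Around Rara, the neighbours differed more than the bin itself. The bin before it, chr11:98400001-98700000 with the receptor tyrosine kinase gene Erbb2, held 2.00% ± 0.777 in wild-type and 3.08% ± 0.393 in heterozygous tumours. The one before that, chr11:98100001-98400000 with the Mediator gene Med1, held 2.90% ± 1.35 and 5.12% ± 0.705. The bin after Rarg, chr15:102300001-102600000 with Sp1, held 4.94% ± 0.201 and 5.82% ± 1.39, close to the Rarg bin itself. After Rxra, 5hmC dropped from 4.08% to 2.32% ± 0.971 in wild-type and from 4.77% to 1.65% ± 1.02 in heterozygous tumours, in the bin chr2:27900001-28200000 with Olfm1. The Rara bin stood above both its neighbours in the mean of each of the 4 groups.

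The sFlk1 plasmid, set against the empty one, asks about tumours made more hypoxic, a difference that the rule of choice did not use. With limma over all 8576 bins, 0 of the 6 bins passed at an adjusted p of 0.05, where 1 bin in all did (0.0117% of bins). Without adjustment 1 of the 6 had a limma p under 0.05, against 7.18% of all bins. This was the Rarb middle bin, in which empty vector tumours 1 to 3 held 5.28%, 5.67% and 2.80% and sFlk1 tumours 1 to 3 held 3.07%, 1.89% and 1.87%. The groups overlapped, since empty vector tumour 3 lay below sFlk1 tumour 1. The means of 4.58% ± 1.56 (SD, n = 3) and 2.27% ± 0.687 (SD, n = 3) differed by -2.31 points (limma SE 0.750, 95% interval -3.85 to -0.768, unadjusted p = 0.00480, adjusted p = 0.517), or -50.4%. The exact two-sided permutation p was 0.20. Of all bins, 1.05% had a more negative difference.

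In the other Rarb bins the sFlk1 difference was smaller or of the other sign. The Rarb far bin held 2.74%, 3.40% and 2.09% in empty vector and 0.882%, 2.09% and 2.61% in sFlk1 tumours, a difference of -0.882 points (limma SE 0.559, 95% interval -2.03 to 0.267, adjusted p = 0.750). The Top2b and Rarb bin held 3.58%, 4.55% and 3.75% in empty vector and 2.90%, 4.73% and 4.63% in sFlk1 tumours, which overlapped, with a difference of 0.124 points (limma SE 0.705, 95% interval -1.32 to 1.57, adjusted p = 0.983). Its sign turned with sFlk1 tumour 2, sFlk1 tumour 3 or empty vector tumour 1 left out (-0.199, -0.147 and -0.0655 points). Whether this difference departs from that in the Phd2 model was not tested. Over the length of Rarb, the body held 3.72% ± 1.02 in empty vector and 2.29% ± 0.191 in sFlk1 tumours.

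For Rara, Rarg and Rxra the groups overlapped as well. The Rara bin held 4.25%, 5.41% and 4.91% in empty vector and 4.05%, 3.25% and 7.19% in sFlk1 tumours, with a difference of -0.0275 points (limma SE 0.935, 95% interval -1.95 to 1.89, adjusted p = 0.997). In it sFlk1 tumours held both the lowest and the highest of the 6 values. The Rarg bin held 7.38%, 4.73% and 5.43% in empty vector and 4.50%, 5.67% and 5.92% in sFlk1 tumours, a difference of -0.484 points (limma SE 0.912, 95% interval -2.36 to 1.39, adjusted p = 0.931). The Rxra bin held 3.29%, 3.85% and 2.66% in empty vector and 2.23%, 3.00% and 3.73% in sFlk1 tumours, a difference of -0.284 points (limma SE 0.753, 95% interval -1.83 to 1.26, adjusted p = 0.957). In percent 5 of the 6 bins had a lower sFlk1 mean, as did 59.5% of all bins, and after division by the tumour mean the Rara and Rarg bins had a higher one. In 0 of the 6 bins did all sFlk1 tumours lie below all empty vector tumours, which held for 8.24% of all bins.

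**Figure D4:**
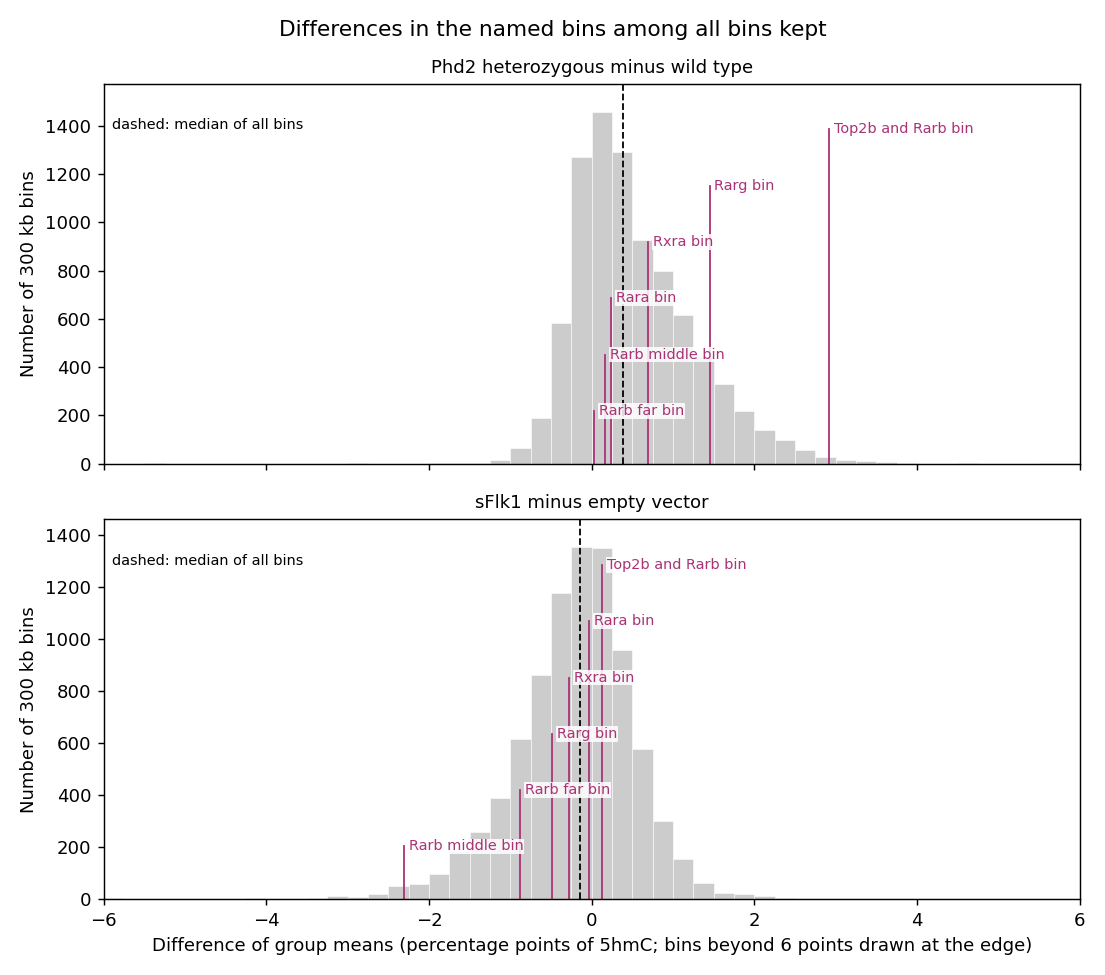
Number of bins (y axis) by difference of group means (x axis, percentage points) over all 8576 bins kept, for the Phd2 model (above) and the injected model (below), with the 6 named bins as lines whose height has no meaning and the median of all bins dashed (0.385 and -0.146 points). The Top2b and Rarb bin lies far right above at 2.92 and near the centre below at 0.124, and the Rarb middle bin lies far left below at -2.31.

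Rara and Rarb each lie near a thyroid hormone receptor, a type II topoisomerase and a REV-ERB gene, an arrangement with Thra, Nr1d1 and Top2a on chromosome 11 and Thrb, Nr1d2 and Top2b on chromosome 14. Thra and Nr1d1 fall in the Rara bin. Most of Top2a, the topoisomerase of dividing cells, falls in the next bin, which held 5.41%, 1.87% and 4.44% in wild-type and 5.90%, 5.35%, 5.38% and 4.32% in heterozygous tumours. The groups there overlapped, with means of 3.91% ± 1.83 and 5.24% ± 0.663. Most of Thrb lies in chr14:17700001-18000000, with 4.11%, 3.56% and 5.32% in wild-type and 11.0%, 10.1%, 6.21% and 4.21% in heterozygous tumours. That bin had a wide spread, and heterozygous tumour 4 fell within the wild-type range, with means of 4.33% ± 0.902 and 7.86% ± 3.19. The Nr1d2 bin held 2.82% ± 0.456 and 3.06% ± 1.13. These 5 genes lie in 4 bins, as Thra and Nr1d1 share the Rara bin. In the sFlk1 comparison 0 of the 5 passed with limma, where 0.0117% of all bins did, with adjusted p from 0.920 to 0.997. At an unadjusted limma p under 0.05 there were 0 of the 5, against 7.18% of all bins.

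The bins most like the Top2b and Rarb bin, by the mean absolute difference of percentages over the 13 tumours, were sought among 6928 autosomal bins above 0 in all tumours and over 10 bins away. The nearest, chr3:108600001-108900000 with Wdr47, Clcc1, Gpsm2, Aknad1, Stxbp3 and Fndc7, was 0.410 points away, then chr5:66300001-66600000 with Apbb2 at 0.457 and chr10:44400001-44700000 with Prdm1 at 0.551, where the median bin was 1.78 points away. The nearest had group means of 3.12% in wild-type, 5.38% in heterozygous, 3.94% in empty vector and 4.14% in sFlk1 tumours. Of the other members the Rxra bin was closest, at 1.01 points, and the Rarb middle bin was 1.51 points away.

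Beyond the members, 55 genes of the pathway and of topoisomerases lay in 53 bins, 2 of them in the Rara bin. In heterozygous tumours 48 had a higher mean, against 75.1% of all bins, and in sFlk1 tumours 41 had a lower mean, against 59.5%. With limma 0 of 55 passed in either comparison, where 0 of all 8576 bins passed in the Phd2 model and 1 (0.0117%) in the sFlk1 comparison. In sFlk1 tumours 2 of 55 had an unadjusted limma p under 0.05, against 7.18% of all bins, both of them genes of retinoid supply, and in the Phd2 model 15 did, against 10.8%. Their bins had a higher level than the median bin of 2.36% in each list, with medians from 3.39% to 5.52%. The shares and medians over all bins set beside the lists are not matched for level.

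Retinoid supply comprised 15 genes of vitamin A transport, synthesis and breakdown, in 14 bins. In sFlk1 tumours 12 had a lower and 3 a higher mean, where 59.5% of all bins had a lower one. The median difference was -0.781 points, against -0.146 over all bins. Aldh1a3, whose enzyme makes retinoic acid, lay in a bin with 5.72%, 5.84% and 5.05% in empty vector and 2.58%, 3.90% and 2.67% in sFlk1 tumours. Its groups did not overlap, with means of 5.54% ± 0.429 and 3.05% ± 0.735, but it did not pass (limma adjusted p = 0.466). In 8.24% of all bins, too, every sFlk1 tumour lay below every empty vector tumour. Aldh1a1, of the same enzyme family, held 3.42% ± 0.369 and 1.96% ± 1.19 (limma adjusted p = 0.673). The highest sFlk1 difference was at Dhrs3, a retinaldehyde reductase gene, with 6.44% ± 2.37 and 7.81% ± 1.89. In heterozygous tumours 12 of the 15 had a higher mean, led by Crabp1, for a binding protein of retinoic acid, with 2.89% ± 0.519 in wild-type and 4.89% ± 0.877 in heterozygous tumours. Rdh10, for an enzyme that oxidises retinol, was among the 3 with a lower mean, with 4.16% ± 1.10 and 3.33% ± 1.40.

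The 15 other nuclear receptors of the RXR partner group, in 14 bins, had a higher heterozygous mean for 13 and a lower sFlk1 mean for 10, with medians of 0.366 and -0.163 points. After Thrb, the largest heterozygous difference was at Ppard, a fatty acid receptor, with 4.91% ± 0.927 and 7.14% ± 1.31. Nr1h3, the LXR alpha gene, had 5.56% ± 0.461 in empty vector and 4.51% ± 0.435 in sFlk1 tumours (limma adjusted p = 0.774). Of 10 coregulators, 10 had a higher heterozygous mean, by a median of 1.66 points against 0.385 over all bins. Their bins had the highest median level, 5.52%, against 2.36% over all bins, and bins of like level were not compared. The coactivator genes Ncoa3 (6.22% ± 1.87 and 9.21% ± 2.82) and Ncoa1 (4.85% ± 1.29 and 7.40% ± 1.04) led, and the corepressor gene Ncor1 had 4.43% ± 0.110 and 4.66% ± 0.272. In sFlk1 tumours 8 of the 10 had a lower mean, with Nrip1, for a repressor of ligand-bound receptors, at 6.55% ± 0.374 in empty vector and 4.95% ± 1.20 in sFlk1 tumours (limma adjusted p = 0.768).

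Of 12 retinoic acid target genes, 10 had a higher heterozygous mean and 7 a lower sFlk1 mean. Stra8, a gene of meiotic entry, held 2.51% ± 0.0982 in wild-type and 4.14% ± 0.609 in heterozygous tumours, while Meis2, a homeobox gene, held 2.76% ± 0.936 and 2.29% ± 0.264. Cyp26a1, whose enzyme degrades retinoic acid, held 3.82% ± 0.554 in empty vector and 2.86% ± 1.22 in sFlk1 tumours (limma adjusted p = 0.781). Of 7 genes of topoisomerases and of the repair of their DNA adducts, 7 had a higher heterozygous mean and 6 a lower sFlk1 mean. Top1, for a topoisomerase that cuts 1 strand, held 3.51% ± 0.467 in wild-type and 5.16% ± 0.531 in heterozygous tumours. It held 5.33% ± 1.84 in empty vector and 3.69% ± 1.00 in sFlk1 tumours (limma adjusted p = 0.695). Top3a and Top3b held 5.25% ± 1.66 and 5.03% ± 0.392 in heterozygous against 3.26% ± 0.605 and 3.45% ± 0.600 in wild-type tumours.

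The 12 marker genes of endothelial cells, fibroblasts and leukocytes lay in 11 bins, since a fibroblast and a leukocyte marker share 1. A higher heterozygous mean was found for 10 of the 12 genes, against 75.1% of all bins, and a lower sFlk1 mean for 5, against 59.5%. The median differences were 0.881 and 0.246 points. With limma 0 passed in either comparison, where 0 of all bins passed in the Phd2 model and 0.0117% in the sFlk1 comparison. At an unadjusted limma p under 0.05 there were 2 of 12 in the Phd2 model, Cd14 and the endothelial gene Pecam1 (named after its values were seen), against 10.8% of all bins, and 0 of 12 in the sFlk1 comparison, against 7.18%. The 2 of 12 with a lower heterozygous mean were endothelial genes too. Among them, Tek held 3.91% ± 0.598 in wild-type and 3.64% ± 0.788 in heterozygous tumours. In the Phd2 model the widest difference was at the monocyte gene Cd14, with 1.80% ± 0.393 and 3.59% ± 0.295. These are 5hmC values and not amounts of cells, and the part of cell composition in the members' values was not tested.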

How the data were processed

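The values deposited by the authors are percentages of 5hmC, with 1 value per tumour for each of 9097 bins. Per the submitters' processing notes, Bismark 0.13.1 and mm9 are listed without a role, but chromosome 1 ends at 195471971 in the table, the length in GRCm38, so GRCm38 coordinates are used. The sources used here do not say how a bin was summarised or which coverage it needed. Depth is unknown, thinly covered bins count fully, and a 0 can mean no data.

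Chromosome Y, the mitochondrial genome and bins at 0 in all tumours were left out (8576 kept). limma 3.58.1 in R 4.3.3, with a trend, was fitted to percentages of all 13 tumours with 4 group means, with Benjamini-Hochberg adjustment over all bins. Single values were compared by exact two-sided permutation. Genes were placed by GRCm38.p6 RefSeq bodies, listed genes in the bin with most of their body. In simulated sFlk1 data over 8576 bins, limma recovered 41.5% of 200 bins lowered by 2 points and 94% of those lowered by 4. These were drawn at random from all bins, whose median level was 2.36%. Lowering by 4 points takes a bin of that level below 0, which real percentages cannot reach. Lowering by 2 points does the same to a bin at 1.95%, the level of the Rarb far bin at the 42.8 percentile. Neither the 41.5% nor the 94% is therefore a measure of power in these data. Titles number the mice, and nothing says that a number pairs mice across groups.

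Members and gene lists were chosen with earlier results of these data known. From each list, up to 2 genes per direction with the smallest sFlk1 p, and with the largest Phd2 difference, could be named; the values of 1 such gene are not reported here. Alternatives were a log2 scale (0.5 added), division by the tumour mean, other filters, 2 groups alone, no trend, sample weights, a replicate block and each tumour left out.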

Additional observations from a re-analysis of the deposited data

Results flagged for a closer look

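Among 60 values checked in the 4 heterozygous tumours, 5 had 1 tumour far from the other 3; chance flags about 1 in 20. None of them was in a bin of the 5 genes. Heterozygous tumour 1 had 9.21% at Dhrs3, against 5.10% to 5.73% in the others. Heterozygous tumour 4 had 2.75% at Rxrb, against 4.33% to 4.65%, and 5.01% at Ncoa3, against 10.2% to 10.9%. Heterozygous tumour 2 had 4.20% in the keratin bin 2 places after Rara, against 1.79% to 2.08%, and 5.59% in the bin 2 places before Rxra, against 4.19% to 4.36%.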

How the results depend on the processing

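In the sFlk1 comparison, 0 of the 6 bins passed under any alternative run, and the Rarb middle and far bins kept their direction under each. The sign turned at the Top2b and Rarb bin with sample weights (-0.0306 points) and, after division by the tumour mean, at the Rara (0.343) and Rarg bins (0.0156). With 1 tumour left out, differences ran from -0.199 to 0.718 points at the Top2b and Rarb bin, -3.20 to -1.77 at the Rarb middle bin, -1.26 to -0.392 at the Rarb far bin, -1.21 to 0.764 at Rara, -1.04 to 0.282 at Rarg and -0.656 to 0.0952 at Rxra. The sign turned at Rara without empty vector tumour 2 (0.251) or sFlk1 tumour 1 (0.361) or 2 (0.764), at Rarg without empty vector tumour 1 (0.282) and at Rxra without empty vector tumour 2 (0.00611) or sFlk1 tumour 1 (0.0952). Bins called ran from 1 to 4, against 1, with 4 without sFlk1 tumour 1 and 2 without sFlk1 tumour 2 or 3 or empty vector tumour 2. In the Phd2 model, division by the tumour mean moved the difference to 2.10 points at the Top2b and Rarb bin, -0.657 at the Rarb middle bin and -0.961 at Rara; the genome-wide mean differs by 22.5%. With 1 tumour left out, the differences ran from 2.67 to 3.15, -0.199 to 0.422, -0.281 to 0.235 (Rarb far), -0.0490 to 0.763, 0.944 to 1.91 (Rarg) and 0.329 to 1.37 (Rxra). Bins called were 0, with 930 at an unadjusted limma p under 0.05, 1 on the log2 scale, and from 0 to 1 with a tumour left out, 1 without heterozygous tumour 3. With the replicate block, 1 bin was called in the Phd2 and 1 in the sFlk1 comparison, and the sFlk1 difference at the Rarb middle bin kept its -2.31 points (adjusted p = 0.623). No shared deviation of same-numbered tumours was seen. Their deviations correlated at -0.0934 to -0.00429 across bins, and 0 of 12 tumours correlated best with their own number. In shallow data of unknown depth this cannot show that the mice were not paired.

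Levels against the median bin were 1.74 (Top2b and Rarb), 2.56 (Rara), 3.32 (Rarg) and 0.842 (Rxra) points, now passing, and 0.0197 at the Rarb far bin, of the other sign (adjusted exact permutation p = 0.906). With 1 tumour left out, where 5 tumours cannot pass, levels against the mean ran from 1.30 to 1.64, 1.79 to 2.58, 2.74 to 3.22 and 0.419 to 0.698 for the same bins, 0.420 to 1.16 for the Rarb middle and -0.479 to -0.0198 for the Rarb far bin. Without read counts, what depth limits cannot be given.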
